A study of Mus musculus with 12 samples.

Results

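The collagen genes of the mouse gonad at embryonic day 12 were examined in 6 groups of single-cell libraries. All genes whose symbol in the deposited gene list has the form Col, a number, the letter a and a number were taken, which gave 44 of 32285 genes. The groups were XX and XY wild-type (WT) gonads, XX and XY gonads without the WT1 isoform that lacks the amino acids KTS (-KTS KO), and XX and XY gonads without the isoform that has them (+KTS KO), with 2 libraries each and 12 in all. Both mutants were homozygous for an allele of Wt1 present in every cell, all lines were kept on the mixed background B6CBAF1/JRj, and the embryos had 23 ± 3 tail somites. Replicate 2 of XX -KTS KO and the 2 libraries of XY -KTS KO each pooled the gonads of several embryos. The study asked what each isoform does in the choice between testis and ovary. Supporting cells, which become Sertoli cells or pre-granulosa cells, take that decision.

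Collagens are secreted or membrane-bound proteins of 3 chains wound into a triple helix. Fibrillar collagens such as types I and III give connective tissue its tensile strength, type IV forms the network of basement membranes, type VI forms beaded filaments around cells, and the fibril-associated collagens (FACIT) such as types IX, XII and XIV coat fibrils made by others. Multiplexins such as type XVIII sit in basement membranes, and a few collagens, such as types XIII and XXIII, cross the cell membrane. In the fetal testis, a basement membrane with type IV collagen is laid down around the forming cords of Sertoli cells.

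The 12 libraries held 108111924 to 147968666 unique molecular identifiers (UMIs, each marking 1 captured mRNA molecule), and 76976 cells were kept, 4665 to 8655 per library. Cells were clustered without the collagen genes, and clusters were named from marker genes of other functions. Gonadal somatic cells, that is all cells outside the germ, endothelial, erythroid, immune and mesonephric duct clusters, numbered 66194. Supporting-like cells made up 38.7 to 55.3% of them in WT, 20.1 to 28.0% in -KTS KO, and 2.94 to 49.0% in +KTS KO. Interstitial-like cells (Pdgfra, Tcf21, Nr2f2 and others) made up 10.9 to 34.1% in WT, whereas at most 20 of them were found in any -KTS KO library. There, border-mesenchyme-like clusters (Osr1, Twist1, Prrx1) took 36.9 to 55.8%. Of the 7 border markers, 3 were detected in clusters 1 and 13, which held most of these cells, and 4 in cluster 27. In each -KTS KO sex, 1 of the 7 had no UMI in somatic cells. The shares above are counts of named clusters and do not show a loss of interstitial marker transcripts. Summed over somatic cells, the interstitial markers stood higher in -KTS KO than in WT of the same sex (values below). Clusters that did not meet the naming rule were left unnamed, and in +KTS KO those led by Cyp11a1 and Inha took most of the 42.9 to 49.3% of somatic cells without a name in XX and of the 44.3% in XY replicate 2. Cyp11a1 is on the fetal Leydig marker list, while these clusters scored highest for pre-supporting markers. Their cells are not among the supporting-like cells. No cluster was named from fetal Leydig or perivascular markers. Cluster 12, interstitial-like by 7 detected markers, was led by genes that included Acta2, Tagln and Pdgfrb, known from mural and smooth muscle cells and not on the perivascular list used. Col6a2, Col1a2, Col6a3 and Col14a1 were also among its 10 leading genes.

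XY +KTS KO libraries stood apart from each other. Replicate 1 held 3156 supporting-like cells against 221 in replicate 2, and its somatic level of Fos, an immediate early gene, was 627 plain CPM (UMIs scaled to a common library total) against at most 140.2 in the others. Replicate 2 held 71 cells with mesonephric duct markers and 97 somatic cells led by muscle genes such as Myog. In XX -KTS KO replicate 2, AY036118, a transcript that marks ribosomal RNA fragments, stood at 957 CPM against at most 386 elsewhere. Wt1 stood at 158 to 309 CPM, and since tags at the 3' end read both isoforms, it says nothing of the genotype. XX +KTS KO replicate 2 held 181 border-mesenchyme-like cells, 4.20% of its somatic cells, against 4 in replicate 1, and its somatic level of Twist1, a mesenchymal transcription factor, was 56.4 plain CPM against 11.5. Of the 76229 distinct barcodes kept, 740 occurred in more than 1 library. The part of these differences in the results was not tested.

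Levels of collagens and collagen-making genes in the cell sums tested are CPM of UMIs on edgeR's TMM scale. Levels by cell class, summed marker levels and those of other genes are plain CPM, without the TMM factor, so values on these 2 scales are not set against each other. Neither grows with transcript length. Of the 44 collagen genes, 26 reached 5 CPM in the mean of at least 1 group, and 18 stayed below, with no group mean above 2.27. Filtering left 43 of them in the test, and Col10a1, a collagen of hypertrophic cartilage, was left out with 7 UMIs in all somatic cells. Together the collagens made up 0.0442 to 0.107% of somatic UMIs.

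**Figure D1:**
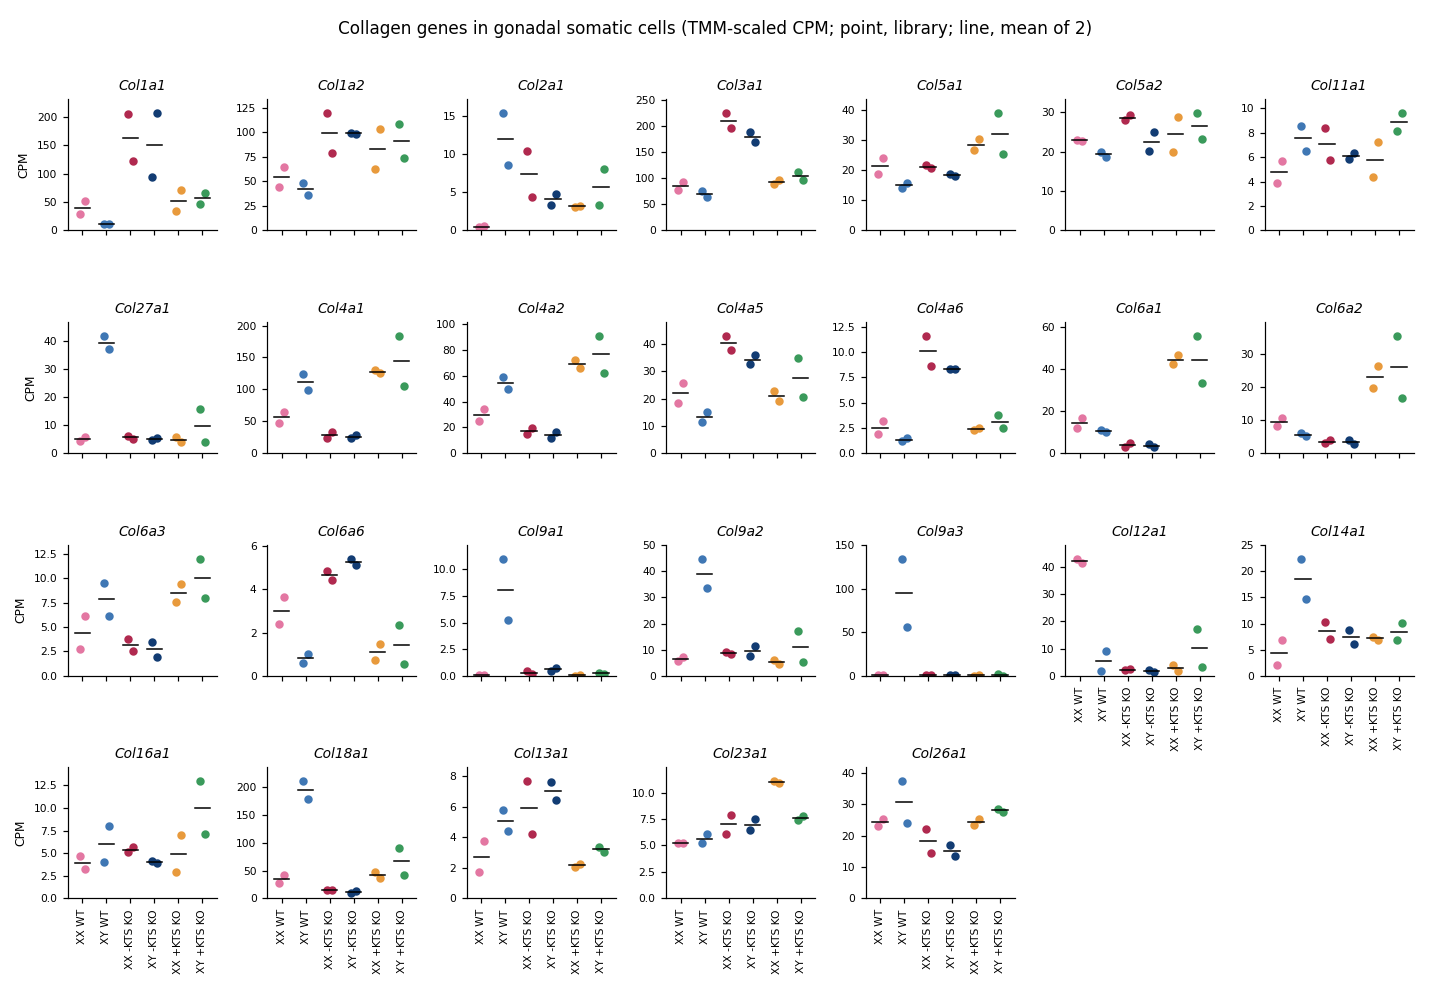
CPM of the 26 collagen genes that reached 5 CPM, in gonadal somatic cells of each library. Points are libraries, lines the mean of 2, and each panel has its own vertical axis from 0. Col9a3 stood at 134 and 56.6 CPM in XY WT and at most 2.19 in every other library.

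The cells that carried these transcripts differed by collagen type. In plain CPM over all collagens, the lowest, median and highest library stood at 945, 1772 and 2723 CPM in endothelial-like cells (11 libraries), 621, 1675 and 3153 in interstitial-like cells (8 libraries), 749, 958 and 2271 in border-mesenchyme-like cells (6 libraries) and 290.1, 393 and 1345 in supporting-like cells (12 libraries). Germ-like cells reached 93.7 CPM and erythroid-like cells 92.9 CPM, 2 classes not known for making collagen. By median, among the 26 genes that reached 5 CPM, endothelial-like cells led for Col4a1, Col4a2 and Col18a1, interstitial-like or border-mesenchyme-like cells for the chains of types I, III, V and VI and for Col4a5 and Col4a6, and supporting-like cells for Col9a2, Col12a1 and Col23a1. The 8 interstitial-like libraries are WT and +KTS KO alone and 4 of the 6 border-mesenchyme-like libraries are -KTS KO, so class and genotype cannot be told apart in this order.

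Col4a1, a chain of the main basement membrane network, stood at 406, 821 and 1299 CPM in endothelial-like cells, above its 231 CPM in the highest interstitial-like library. Col18a1, whose C-terminal fragment is endostatin, reached 164, 349 and 471 CPM there and 3.63, 48.5 and 479.6 in supporting-like cells, the latter spread over sexes and genotypes. Col18a1 also stood at 33.2, 45.2 and 60.7 CPM in germ-like cells, against at most 20 in erythroid-like cells. Type III collagen (Col3a1) stood at 97.4, 308 and 614 CPM in interstitial-like and 95.1, 139 and 251 in coelomic-epithelium-like cells. Its highest value was 28.2 CPM in endothelial-like and 7.94 in germ-like cells. These are descriptions of clusters and carry no test.

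**Figure D2:**
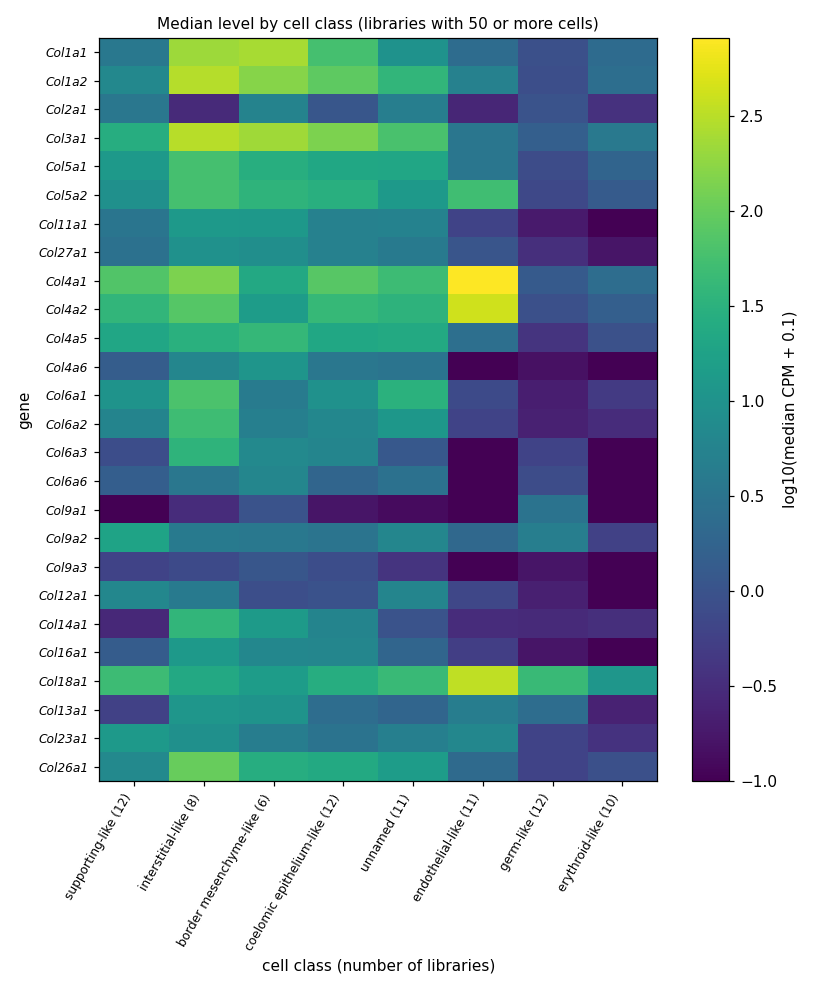
Median plain CPM (without the TMM factor) over libraries with at least 50 cells of a class, for the 26 collagen genes (rows) in 8 cell classes (columns, number of libraries in brackets), as log10 of the median plus 0.1. Col4a1, Col4a2 and Col18a1 are brightest in endothelial-like cells, and the germ-like and erythroid-like columns are each brightest at Col18a1.

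Somatic sums were compared with edgeR's quasi-likelihood test at a false discovery rate of 0.05. In such sums, fewer cells of a type and less RNA per cell cannot be told apart. In XX -KTS KO against XX WT, 7 collagens rose and 6 fell, and 15.9% of 17751 genes passed (6.6% higher, 9.33% lower) where 30.2% of the 43 collagens did. In XY -KTS KO against XY WT, 7 rose and 12 fell, 44.2% against a background of 23.3% (11% higher, 12.3% lower). In XX +KTS KO, 5 rose and 3 fell, 18.6% against 4.97% (2.3% higher, 2.67% lower), and in XY +KTS KO, 11 rose and 5 fell, 37.2% against 12.2% (5.94% higher, 6.23% lower). Between WT sexes, 4 collagens were higher in XX and 10 in XY, 32.6% against 13.1% (6.23% and 6.85%). Median log2 fold changes of the collagens were 0.41, -0.58, 0.12, 0.42 and -0.15 in this order, beside 0.01, 0.01, 0.00086, 0.05 and 0.02 over all genes. The -KTS KO and +KTS KO comparisons of a sex share their WT libraries. A test of whether the change differed between the sexes passed for 5 collagens in -KTS KO, all in the positive direction of XX minus XY (11.6% against 3.01% of all genes, 1.76% positive and 1.26% negative). In +KTS KO it passed for 2 in the positive and 1 in the negative direction (6.98% against 3.84%, 2.03% and 1.81%).

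With 2 libraries a group, many calls needed all 4. Leaving out XX WT replicate 1 took the XX -KTS KO count from 13 to 6, and leaving out either XX -KTS KO library took it to 5. The XX +KTS KO count of 8 fell to 1 without XX +KTS KO replicate 1 and to 0 without any other of the 4 libraries. The XY +KTS KO count of 16 became 4 without XY WT replicate 1, 8 without XY WT replicate 2, 9 without XY +KTS KO replicate 1 and 18 without XY +KTS KO replicate 2. For the WT sexes, 14 became 4 without XX WT replicate 1, 8 without XX WT replicate 2, 7 without XY WT replicate 1 and 12 without XY WT replicate 2. In XY -KTS KO, 13 to 17 were called beside 19. Calls that held with any 1 library left out were those of Col2a1, Col3a1, Col4a6 and Col6a1 in XX -KTS KO, of Col1a1, Col3a1, Col4a1, Col4a2, Col4a5, Col4a6, Col6a1, Col9a1, Col9a3, Col18a1 and Col27a1 in XY -KTS KO, of Col6a1, Col6a2, Col9a1 and Col9a3 in XY +KTS KO, and of Col2a1, Col9a1, Col9a3 and Col18a1 between the WT sexes. Every other collagen call in somatic cells named here was lost without at least 1 library. With the replicate block the calls lost were those of Col4a1, Col4a5 and Col18a1 in XX -KTS KO, Col2a1 in XY -KTS KO, Col4a1 in XX +KTS KO, Col1a2 and Col7a1 in XY +KTS KO, and Col4a1, Col4a2 and Col12a1 between the WT sexes. Over all kept cells they were those of Col1a1, Col4a5, Col18a1, Col24a1 and Col25a1 in XX -KTS KO, Col2a1, Col6a3, Col6a5 and Col26a1 in XY -KTS KO, Col4a1, Col4a2, Col6a5 and Col11a2 in XX +KTS KO, Col1a2, Col3a1, Col9a2, Col17a1 and Col27a1 in XY +KTS KO, and Col1a1, Col4a1, Col4a2, Col6a5, Col14a1 and Col22a1 between the WT sexes.

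**Figure D3:**
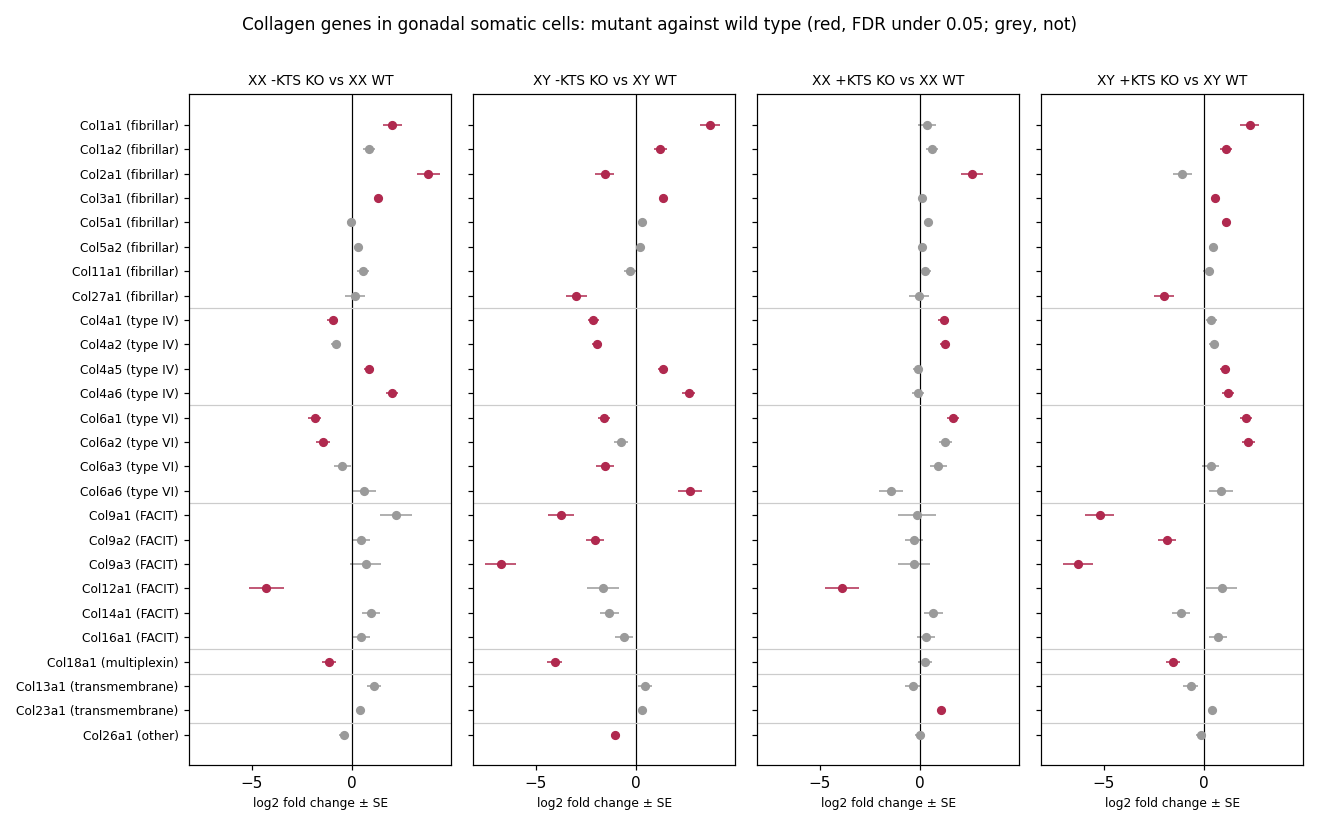
Log2 fold change with its SE for the 26 collagen genes in the 4 mutant comparisons in gonadal somatic cells, ordered by collagen type. Red marks an adjusted p under 0.05. Col4a1 and Col4a2 lie left of 0 and Col4a5 and Col4a6 right of 0 in both -KTS KO panels.

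Among the chains of types I and III, the fibrillar collagens of loose mesenchyme, Col1a1 and Col3a1 rose in both sexes of -KTS KO and Col1a2 in XY. Col3a1 stood at 77.2 and 93.6 CPM in XX WT and 225 and 197 in XX -KTS KO (log2 fold change 1.30, SE 0.15, adjusted p = 0.00075), and at 74.9 and 65 in XY WT and 189 and 169 in XY -KTS KO (log2 fold change 1.36, SE 0.15, adjusted p = 0.00033). All 4 -KTS KO libraries lay above all 4 WT libraries. Col1a1, the alpha 1 chain of type I, went from 29.5 and 51.2 CPM to 206 and 122 in XX (log2 fold change 2.02, SE 0.47, adjusted p = 0.018) and from 11.6 and 11.5 to 94.2 and 207 in XY (log2 fold change 3.70, SE 0.50, adjusted p = 0.0009). The XX call was lost without XX WT replicate 1, without XX -KTS KO replicate 1 and over all kept cells, with adjusted p from 5.8e-05 to 0.14 over the alternatives. Col1a2, the alpha 2 chain, rose in XY -KTS KO from 48.8 and 35.9 CPM to 99.2 and 98.6 (log2 fold change 1.22, SE 0.31, adjusted p = 0.019), a call lost without XY WT replicate 2 or either XY -KTS KO library. In XX its values were 44.8 and 64.9 in WT and 119 and 78.5 in -KTS KO (log2 fold change 0.85, SE 0.31, adjusted p = 0.093). Between the WT sexes, Col1a1 was higher in XX (log2 fold change 1.80, SE 0.47, adjusted p = 0.033), a call lost without any 1 of the 4 libraries.

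In +KTS KO these chains rose in XY, and the difference between the sexes in the change passed the test for none of them. Col1a1 stood at 46.1 and 66.9 CPM in XY +KTS KO (log2 fold change 2.29, SE 0.48, adjusted p = 0.016) and at 34 and 70.6 in XX +KTS KO (log2 fold change 0.37, SE 0.45, adjusted p = 0.76). Col5a1, a chain of type V, which sits inside type I fibrils, stood at 14.1 and 15.8 CPM in XY WT and 38.8 and 25.3 in XY +KTS KO (log2 fold change 1.10, SE 0.20, adjusted p = 0.0089). XY +KTS KO libraries also lay above XY WT for Col1a2 (log2 fold change 1.10, SE 0.31, adjusted p = 0.047) and Col3a1 (log2 fold change 0.57, SE 0.15, adjusted p = 0.036). The Col1a2 call was lost with another normalization, and the calls of Col1a1, Col1a2, Col3a1 and Col5a1 were lost without XY WT replicate 1. Those of Col1a1, Col1a2 and Col3a1 were also lost without XY WT replicate 2, those of Col1a2 and Col3a1 without XY +KTS KO replicate 1 and over all kept cells, and that of Col1a2 with the replicate block.

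Col2a1, the type II chain known from cartilage, was the fibrillar collagen with the largest rise in XX mutants. It stood at 0.414 and 0.623 CPM in XX WT, 10.4 and 4.42 in XX -KTS KO (log2 fold change 3.82, SE 0.56, adjusted p = 0.0022) and 3.1 and 3.25 in XX +KTS KO (log2 fold change 2.60, SE 0.54, adjusted p = 0.027). XY WT held 15.3 and 8.56 CPM, above XX WT (log2 fold change -4.50, SE 0.57, adjusted p = 0.0014). It fell in XY -KTS KO to 3.37 and 4.73 CPM (log2 fold change -1.56, SE 0.49, adjusted p = 0.045), a call lost without any 1 of the 4 libraries, as was the one of XX +KTS KO. The XY -KTS KO call was also lost with the replicate block and over all kept cells. In XY +KTS KO it stood at 3.34 and 8.0 (log2 fold change -1.07, SE 0.48, adjusted p = 0.17). All 8 mutant libraries lay above both XX WT libraries and below XY WT replicate 1.

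Col27a1, a fibrillar chain with a short triple helix, was highest in XY WT. It stood at 41.6 and 36.8 CPM in XY WT and 4.19 and 5.81 in XX WT (log2 fold change -2.97, SE 0.52, adjusted p = 0.006), and fell in XY -KTS KO to 4.54 and 5.47 (log2 fold change -2.97, SE 0.52, adjusted p = 0.0032) and in XY +KTS KO to 15.7 and 3.92 (log2 fold change -2.0, SE 0.50, adjusted p = 0.03). All mutant libraries lay below both XY WT libraries. The sex difference was lost without XX WT replicate 1 and the XY +KTS KO call without either XY WT library and over all kept cells. Of the 11 fibrillar genes, 4 rose in XX -KTS KO (Col2a1, Col1a1, Col24a1, Col3a1) and 7 were not called. In XY -KTS KO, 3 rose, 2 fell and 6 were not called, in XX +KTS KO 1 rose and 1, Col11a2 (below 1 CPM), fell, and in XY +KTS KO 4 rose and 1 fell. The shares called were thus 36.4, 45.5, 18.2 and 45.5%, beside 15.9%, 23.3%, 4.97% and 12.2% of all genes tested. Col5a2 and Col11a1 passed in none of these, with somatic values of 18.7 to 29.7 and 3.92 to 9.58 CPM over the 12 libraries.

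Type IV collagen has 6 chains encoded in 3 head-to-head pairs, and in XY -KTS KO both expressed pairs moved, in opposite directions. In XX -KTS KO Col4a2 was not called. Promoters of the 4 expressed members are printed because they are the ones that moved, from the RefSeq table of build GRCm38.p6 (250 bases before to 50 after the annotated start, 5′ to 3′ on the gene's strand). Capitals mark every match, on either strand, to CCAAT, the GC box GGGCGG, the SOX motif AACAAT and the WT1-type motifs GCGTGGGAG, GCGTGGGCG and GCGGGGGCG. The window of Col4a1 is chr8:11312777-11313076 on the minus strand and that of Col4a2 is chr8:11312555-11312854 on the plus strand. Their annotated starts on chromosome 8 lie 21 bases apart and 78 bases are shared by both windows. The windows of Col4a5, chrX:141475169-141475468 on the plus strand, and Col4a6, chrX:141474027-141474326 on the minus strand, share none, with starts 1343 bases apart.
Col4a1: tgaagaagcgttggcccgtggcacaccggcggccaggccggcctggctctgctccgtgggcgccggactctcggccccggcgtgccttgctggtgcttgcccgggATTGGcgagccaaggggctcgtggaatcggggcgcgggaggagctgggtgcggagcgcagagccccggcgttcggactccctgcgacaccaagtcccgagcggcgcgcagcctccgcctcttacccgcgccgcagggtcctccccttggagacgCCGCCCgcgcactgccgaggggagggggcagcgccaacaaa
Col4a2: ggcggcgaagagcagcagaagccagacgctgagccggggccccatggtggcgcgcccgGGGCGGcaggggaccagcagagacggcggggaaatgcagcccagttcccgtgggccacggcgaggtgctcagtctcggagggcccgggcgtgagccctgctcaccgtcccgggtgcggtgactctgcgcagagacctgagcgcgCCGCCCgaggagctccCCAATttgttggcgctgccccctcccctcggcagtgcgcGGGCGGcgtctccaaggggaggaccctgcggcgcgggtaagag
Col4a5: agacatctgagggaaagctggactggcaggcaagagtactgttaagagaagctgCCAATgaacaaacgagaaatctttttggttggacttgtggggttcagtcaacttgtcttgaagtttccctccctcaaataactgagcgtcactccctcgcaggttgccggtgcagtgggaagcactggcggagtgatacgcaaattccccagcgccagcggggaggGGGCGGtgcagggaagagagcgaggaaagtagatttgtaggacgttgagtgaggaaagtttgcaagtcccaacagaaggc
Col4a6: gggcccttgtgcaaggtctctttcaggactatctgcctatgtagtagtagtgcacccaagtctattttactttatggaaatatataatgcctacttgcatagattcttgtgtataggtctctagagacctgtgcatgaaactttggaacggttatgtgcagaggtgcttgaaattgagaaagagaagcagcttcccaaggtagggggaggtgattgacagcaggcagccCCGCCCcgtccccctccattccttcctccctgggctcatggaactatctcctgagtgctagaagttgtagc
GC content was 74 and 73.7% in the windows of Col4a1 and Col4a2, and 52.7 and 48.3% in those of Col4a5 and Col4a6. CCAAT lies in 37.4% and GGGCGG in 35.7% of all 32851 promoters of the table, and none of these 4 windows holds the letters of a WT1-type motif. A match is a string of letters and not a shown site.

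Col4a1 stood at 124 and 99.5 CPM in XY WT and 23 and 28 in XY -KTS KO (log2 fold change -2.13, SE 0.28, adjusted p = 0.00068), a fall of 4.39-fold. Col4a2, its partner in the heterotrimer, went from 59.5 and 49.8 to 12.1 and 16.4 CPM (log2 fold change -1.94, SE 0.25, adjusted p = 0.00062). In XX -KTS KO, Col4a1 fell from 48 and 64.3 to 24.5 and 33.2 CPM (log2 fold change -0.96, SE 0.27, adjusted p = 0.037), a call lost without any 1 of the 4 libraries and with the replicate block, and Col4a2 was not called (log2 fold change -0.78, SE 0.24, adjusted p = 0.052), though it was in 6 of 12 alternatives, DESeq2 among them. For both chains, no -KTS KO library reached the lowest WT library. Endothelial-like cells, which are left out of these sums, held Col4a1 at plain CPM means of 534 in XY WT and 696 in XY -KTS KO, with no test.

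In XX +KTS KO the pair rose. Col4a1 reached 131 and 125 CPM (log2 fold change 1.19, SE 0.27, adjusted p = 0.035) and Col4a2 72.4 and 65.9 (log2 fold change 1.23, SE 0.24, adjusted p = 0.02), beside 124 and 99.5 and 59.5 and 49.8 in XY WT, and both calls were lost without any 1 of the 4 libraries and over all kept cells, that of Col4a1 also with the replicate block. XY +KTS KO held Col4a1 at 184 and 106 CPM (log2 fold change 0.37, SE 0.26, adjusted p = 0.37) and Col4a2 at 90.9 and 62.6 (log2 fold change 0.49, SE 0.24, adjusted p = 0.19). All 4 +KTS KO libraries lay above all XX WT and -KTS KO libraries for both chains. Between WT sexes, both chains were lower in XX (log2 fold change -0.99, SE 0.27, adjusted p = 0.037 for Col4a1), and both calls were lost without XX WT replicate 1, XX WT replicate 2 or XY WT replicate 1, with the replicate block, and over all kept cells.

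Col4a5 and Col4a6, the X-linked pair, rose in -KTS KO. Col4a6 went from 1.86 and 3.19 to 11.6 and 8.63 CPM in XX (log2 fold change 2.00, SE 0.30, adjusted p = 0.0023) and from 1.19 and 1.51 to 8.36 and 8.35 in XY (log2 fold change 2.63, SE 0.31, adjusted p = 0.0004). Col4a5 went from 18.4 and 25.7 to 43 and 38.1 in XX (log2 fold change 0.88, SE 0.25, adjusted p = 0.042) and from 11.5 and 15 to 32.7 and 36 in XY (log2 fold change 1.37, SE 0.26, adjusted p = 0.0046). All -KTS KO libraries lay above all WT libraries for both genes. The XX call of Col4a5 was lost without any 1 of the 4 libraries, with the replicate block and over all kept cells, and the other 3 held without each. Neither passed between the WT sexes (log2 fold change 0.73, SE 0.25, adjusted p = 0.09 for Col4a5), though both did under DESeq2. In XY +KTS KO they stood at 34.9 and 20.7 and 3.73 and 2.48 CPM (log2 fold change 1.07, SE 0.26, adjusted p = 0.027 for Col4a5), both called, and both calls were lost without XY WT replicate 1 or XY +KTS KO replicate 1. That of Col4a6 was also lost without XY WT replicate 2. Of the third pair, Col4a3 and Col4a4, known from kidney filter membranes, no group mean passed 1 CPM.

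Col6a1, a chain of type VI, moved with opposite signs in the mutants. Col6a1 stood at 11.9 and 16.7 CPM in XX WT and 10.9 and 9.86 in XY WT. It fell to 3.02 and 4.9 in XX -KTS KO (log2 fold change -1.86, SE 0.31, adjusted p = 0.0042) and 4.12 and 2.79 in XY -KTS KO (log2 fold change -1.59, SE 0.31, adjusted p = 0.0059). It rose to 42.4 and 46.6 in XX +KTS KO (log2 fold change 1.64, SE 0.30, adjusted p = 0.017) and 55.7 and 33.4 in XY +KTS KO (log2 fold change 2.10, SE 0.31, adjusted p = 0.0033). No library of any genotype overlapped another genotype. The XX +KTS KO call was lost without any 1 of the 4 libraries, and the other 3 held without each.

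Col6a2, encoded near Col6a1 on chromosome 10, stood at 8.24 and 10.7 CPM in XX WT and 3.08 and 3.89 in XX -KTS KO (log2 fold change -1.45, SE 0.34, adjusted p = 0.019), a call lost without XX WT replicate 2 or either XX -KTS KO library. It rose in XY +KTS KO from 5.98 and 5.11 to 35.3 and 16.5 CPM (log2 fold change 2.22, SE 0.34, adjusted p = 0.0041), and its values were 19.7 and 26.2 in XX +KTS KO (log2 fold change 1.27, SE 0.33, adjusted p = 0.06) and 3.87 and 2.75 in XY -KTS KO (log2 fold change -0.75, SE 0.34, adjusted p = 0.14). Col6a3, the third chain of the common heterotrimer, fell in XY -KTS KO from 9.58 and 6.16 to 3.5 and 1.96 CPM (log2 fold change -1.53, SE 0.43, adjusted p = 0.029), a call lost without XY WT replicate 1 or XY -KTS KO replicate 2. Col6a6, an alternative partner chain, went the other way, from 0.579 and 1.03 to 5.42 and 5.12 CPM (log2 fold change 2.71, SE 0.62, adjusted p = 0.011), a call lost without XY WT replicate 1. In XX it stood at 2.4 and 3.63 in WT and 4.86 and 4.44 in -KTS KO (log2 fold change 0.62, SE 0.57, adjusted p = 0.51).

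The window of Col6a6, chr9:105828036-105828335 on the minus strand, was the 1 collagen promoter of 38 (35 genes with an entry) that held the WT1-type letters GCGTGGGAG, which 0.472% of all promoters hold. They begin at position 14, counted from 1 at the annotated start. GCGGGGGCG, in 2.91% of all promoters, was found in that of Col8a1, and GCGTGGGCG, in 0.612%, in none. Capitals mark the same motifs as above. The other genes are Col1a1, Col2a1, Col4a3, Col5a2, Col9a3, Col12a1, Col14a1, Col22a1 and Col26a1.
Col6a6: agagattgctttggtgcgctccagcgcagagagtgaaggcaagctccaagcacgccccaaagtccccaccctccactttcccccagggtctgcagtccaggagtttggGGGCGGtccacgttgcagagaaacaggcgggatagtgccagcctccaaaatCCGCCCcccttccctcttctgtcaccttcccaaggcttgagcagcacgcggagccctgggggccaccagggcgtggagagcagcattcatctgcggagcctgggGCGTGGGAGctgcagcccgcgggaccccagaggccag

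The chains of type IX, a FACIT known from cartilage, were higher in XY WT than in XX WT gonads, and Col9a3 and Col9a1 had the largest sex differences of all collagens. Col9a3 stood at 0.399 and 0.513 CPM in XX WT and 134 and 56.6 in XY WT, 207-fold higher in XY (log2 fold change -7.69, SE 0.81, adjusted p = 0.00054). Col9a1 stood at 0.0444 and 0.0874 and 11 and 5.22 (log2 fold change -6.86, SE 0.81, adjusted p = 0.00092), and Col9a2 at 5.78 and 7.02 and 44.8 and 33.4 (log2 fold change -2.61, SE 0.47, adjusted p = 0.0068). The sex difference of Col9a2 was lost without XX WT replicate 1. All 3 were higher in both XY WT libraries than in any other library of the series. In these sums, Sox9, which drives Sertoli cells, stood at 156 and 249.7 plain CPM in XY WT and at most 45.8 elsewhere, and its part was not tested.

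Over somatic cells, type IX transcripts fell in both XY mutants. Col9a3 fell to 0.91 and 0.868 CPM in XY -KTS KO (log2 fold change -6.75, SE 0.77, adjusted p = 0.00035) and 2.19 and 0.337 in XY +KTS KO (log2 fold change -6.26, SE 0.74, adjusted p = 0.0014). Col9a1 fell to 0.484 and 0.733 (log2 fold change -3.73, SE 0.65, adjusted p = 0.0032) and 0.279 and 0.164 (log2 fold change -5.20, SE 0.71, adjusted p = 0.0025). Col9a2 fell to 7.54 and 11.5 (log2 fold change -2.04, SE 0.46, adjusted p = 0.011) and 17.1 and 5.1 (log2 fold change -1.82, SE 0.45, adjusted p = 0.031). The Col9a2 calls were lost without XY WT replicate 1, that of XY +KTS KO also over all kept cells. In XX mutants none of the chains was called, and Col9a3 stood at 0.748 and 0.746 CPM without the -KTS isoform and 0.29 and 0.467 without the +KTS isoform. The change differed between the sexes for Col9a3 in both mutants (XX minus XY, difference in log2 fold change 7.44, SE 1.04, adjusted p = 0.0086 in -KTS KO and difference in log2 fold change 5.97, SE 1.06, adjusted p = 0.018 in +KTS KO) and for Col9a1 in -KTS KO, and all 3 calls were lost without XX WT replicate 1.

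Col12a1, a FACIT of fibril surfaces in tendon and dermis, was highest in XX WT. It stood at 43.1 and 41.6 CPM in XX WT and 1.9 and 9.28 in XY WT (log2 fold change 2.92, SE 0.80, adjusted p = 0.04), a call lost without XY WT replicate 1 or either XX WT library and with the replicate block. It fell in XX -KTS KO to 2.09 and 2.33 (log2 fold change -4.26, SE 0.86, adjusted p = 0.0097), 19.2-fold, and in XX +KTS KO to 3.84 and 1.93 (log2 fold change -3.87, SE 0.84, adjusted p = 0.03), 14.7-fold. Both XX WT libraries lay above every other library, of which XY +KTS KO replicate 1 was next with 17.4 CPM. XY values were 2.06 and 1.56 in -KTS KO and 17.4 and 3.28 in +KTS KO, neither called. The calls were lost without either XX -KTS KO library in the former comparison and without any 1 of the 4 in the latter. Foxl2, the pre-granulosa factor, stood at 19.4 and 23.9 plain CPM in XX WT, 0.275 and 0.35 in XX -KTS KO, with 14.2 and 6.56 in XX +KTS KO. It was highest in XY +KTS KO replicate 1 (35.8, with 8.55 in replicate 2), and its part was not tested.

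Of the 9 FACIT genes, Col14a1 was higher in XY WT (22.4 and 14.7 CPM) than in XX WT (2.11 and 6.77, log2 fold change -2.05, SE 0.47, adjusted p = 0.02), a call lost without XX WT replicate 1 or XY WT replicate 1. In XY mutants it stood at 8.78 and 6.06 and 6.77 and 10.1 CPM, not called. Col16a1 was called in no comparison, at 4.73 and 3.22 CPM in XX WT, 4.07 and 8.06 in XY WT, 5.13 and 5.69 and 4.17 and 3.93 in XX and XY -KTS KO, and 2.9 and 7.04 and 13 and 7.12 in XX and XY +KTS KO. Col19a1 (below 0.5 CPM) fell in XX -KTS KO and Col22a1 (below 2 CPM) was higher in XX than in XY WT, and both calls were lost without some library. Of the 9, 2 fell in XX -KTS KO, 3 in XY -KTS KO, 1 in XX +KTS KO, 3 in XY +KTS KO, and none rose. These are shares of 22.2, 33.3, 11.1 and 33.3%, where 9.33%, 12.3%, 2.67% and 6.23% of all genes fell.

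Col18a1, the multiplexin, stood at 27.8 and 42.4 CPM in XX WT and 211 and 180.1 in XY WT (log2 fold change -2.48, SE 0.35, adjusted p = 0.0023). It fell in XY -KTS KO to 10.1 and 13.6 (log2 fold change -4.05, SE 0.38, adjusted p = 0.00011), 16.5-fold, and in XY +KTS KO to 91.7 and 42.1 (log2 fold change -1.55, SE 0.34, adjusted p = 0.019). In XX -KTS KO it was 15.9 and 16 (log2 fold change -1.14, SE 0.34, adjusted p = 0.048), below XX WT, a call lost without any 1 of the 4 libraries, with the replicate block, and over all kept cells. Every -KTS KO library lay below every other library of the series. The XY +KTS KO call was lost without XY WT replicate 1. In XX +KTS KO it stood at 48.5 and 36.1, overlapping XX WT. A RefSeq window of it, chr10:77166481-77166780 on the minus strand, is printed as that of the collagen with the largest fall in mean CPM, with the motifs above in capitals, which are 3 GC boxes and 1 CCAAT.
Col18a1: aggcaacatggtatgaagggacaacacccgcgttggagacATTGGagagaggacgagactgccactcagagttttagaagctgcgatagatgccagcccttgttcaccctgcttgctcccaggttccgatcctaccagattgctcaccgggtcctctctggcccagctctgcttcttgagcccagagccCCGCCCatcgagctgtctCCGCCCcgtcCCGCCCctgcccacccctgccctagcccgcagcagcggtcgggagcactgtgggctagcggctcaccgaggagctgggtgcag

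Among the remaining collagens, Col23a1, which crosses the membrane, rose in XX +KTS KO from 5.27 and 5.27 to 11.1 and 10.9 CPM (log2 fold change 1.06, SE 0.16, adjusted p = 0.0082), a call lost without either XX WT library or XX +KTS KO replicate 2. Col26a1, known from testis and ovary, fell in XY -KTS KO from 37.3 and 24.1 to 17.1 and 13.4 (log2 fold change -1.01, SE 0.24, adjusted p = 0.014), a call lost without XY WT replicate 1 or XY -KTS KO replicate 2. Col13a1 was called in none, with 1.72 and 3.76 CPM in XX WT and 7.67 and 4.19 in XX -KTS KO. Below 5 CPM, Col8a1 and Col17a1 rose in XY +KTS KO (2.96 and 0.419 and 2.06 and 0.542 CPM), Col7a1 fell in XY -KTS KO and rose in XY +KTS KO, Col6a5 rose in XY -KTS KO, fell in XX +KTS KO and was higher in XX than in XY WT, and Col25a1 rose in XX -KTS KO and was higher in XY WT. Col24a1, Col19a1, Col22a1 and Col11a2 are named above, and the other low genes (Col4a3, Col4a4, Col5a3, Col6a4, Col8a2, Col15a1, Col20a1 and Col28a1) passed in no comparison of somatic cells.

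Supporting-like cells were tested on their own, where 36 collagens passed the filter. For XX -KTS KO, 9 rose and 4 fell, 36.1% beside a share over all genes of 17.4% (8.03% higher, 9.38% lower). In XY -KTS KO, 8 rose and 14 fell, 61.1% against 29.7% (13.3% higher, 16.4% lower). In XX +KTS KO, 5 rose and 1 fell, 16.7% against 4.64% (2.41% higher, 2.23% lower), and in XY +KTS KO, 8 rose and 8 fell, 44.4% against 22.2% (10.1% higher, 12.1% lower). The cells came from different clusters by genotype: pre-granulosa-like cluster 3 and pre-supporting-like cluster 19 in XX WT, Sertoli-like cluster 10 and pre-supporting-like cluster 14 in XY WT, cluster 4 (no supporting marker among its 10 leading genes) in -KTS KO, cluster 11 in XY +KTS KO replicate 1, and pre-supporting-like clusters 19 and 26 in the other 3 +KTS KO libraries. Cluster 4 was named pre-granulosa by 3 detected markers with a score of 0.473, and held at most 6 cells of any WT library. Cluster 11 held at most 9 cells of any WT library, and Sertoli-like cluster 10 held 4 and 0 cells of XY +KTS KO. Cluster 3 held 2200 and 2226 cells of XX WT and 6 and 2 of XX +KTS KO. Cluster 19 held 461 and 378 cells of XX WT and 193 and 33 of XX +KTS KO. Genotype and cell class therefore cannot be told apart in the tests of supporting-like cells of either mutant. Numbers of cells were 2594 to 2902 per WT library, 819 to 1422 in -KTS KO, and, for +KTS KO, 370 and 127 in XX and 3156 and 221 in XY. Counts moved by over 1.5 times without some libraries, from 13 to 8, 8 and 7 in XX -KTS KO (without XX WT replicate 1, XX WT replicate 2 and XX -KTS KO replicate 1), from 6 to 3, 3, 1 and 2 in XX +KTS KO (without XX WT replicates 1 and 2 and XX +KTS KO replicates 1 and 2), and from 16 to 8 in XY +KTS KO without its replicate 1.

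In supporting-like cells, 5 collagens that were high in XY WT fell in XY -KTS KO. Col9a3 stood at 356 and 99.9 CPM in XY WT and 0.238 and 0.418 in XY -KTS KO (log2 fold change -9.41, SE 0.73, adjusted p = 9.5e-06). On the TMM scale, Col18a1 went from 514 and 302 to 5.23 and 3.76 (log2 fold change -6.50, SE 0.47, adjusted p = 7.0e-06). Col27a1 went from 99.9 and 59.5 to 1.62 and 1.11 (log2 fold change -5.86, SE 0.64, adjusted p = 6.6e-05). Col14a1 went from 46.6 and 18 to 0.285 and 0 (log2 fold change -7.78, SE 0.80). Col9a1 had 1087 UMIs in XY WT and 0 in XY -KTS KO, at least 252-fold lower if 3 UMIs are taken as the floor over both libraries. XY WT replicate 1 lay above replicate 2 for each of these 5 genes, and the groups did not overlap. In supporting-like cells 1087 of the 1109 UMIs of Col9a1 and 1864 of the 1926 of Col14a1 lay in XY WT, the group through which both passed the filter. Their falls, counted above in both XY mutants, are therefore given as a description. The calls of the other 3 held without any 1 library. The other falls of XY -KTS KO were Col2a1, Col4a1, Col4a2, Col6a3, Col7a1, Col8a2, Col9a2, Col11a1 and Col17a1. Those of Col6a3, Col7a1, Col8a2, Col9a2 and Col17a1 were lost without some library, and that of Col8a2 also under DESeq2. In XY +KTS KO the same 5 fell, with Col9a3 at 3.74 and 0.973 CPM (log2 fold change -6.18, SE 0.61, adjusted p = 0.00013) and Col18a1 at 115 and 47.3 (log2 fold change -2.29, SE 0.38, adjusted p = 0.002). The Col9a1 calls were lost under DESeq2 in both XY mutants.

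In the supporting-like cells of -KTS KO, 8 collagens rose in both sexes. Col3a1 went from 28.1 and 31.2 to 109.9 and 149 CPM in XX (log2 fold change 2.13, SE 0.37, adjusted p = 0.0027) and from 17.1 and 20.4 to 115 and 76 in XY (log2 fold change 2.34, SE 0.38, adjusted p = 0.00081). Col4a6 went from 0.779 and 0.964 to 7.54 and 7.24 in XX (log2 fold change 3.07, SE 0.42, adjusted p = 0.00063) and from 0.31 and 0.52 to 5.37 and 4.6 in XY (log2 fold change 3.54, SE 0.46, adjusted p = 0.0002). Col1a2, Col1a1, Col4a5, Col6a6, Col23a1 and Col24a1 were the other 6. Col24a1 had 202 UMIs over all supporting-like cells, with a median library of 0.237 and a highest of 3.29 plain CPM. Its rises are therefore given as a description. Col23a1 stood at 14.3 and 18.8 CPM in XX -KTS KO against 6.14 and 6.64 in XX WT (log2 fold change 1.37, SE 0.22, adjusted p = 0.0019). Of these, the XX calls of Col1a1, Col4a5 and Col6a6 were lost without some library. In plain CPM, Col3a1 reached 7.94 in germ-like cells of XX -KTS KO and 20.2 in its erythroid-like cells, against 104 to 145 in supporting-like cells. The margin was smaller for Col1a1 and Col1a2, which stood at 12 and 13.5 in the 1 erythroid-like library of XY -KTS KO, against 4.59 to 23.8 and 14.4 to 21.4 in supporting-like cells. For XX -KTS KO, erythroid-like cells reached 9.25 and 10.1, against 17.2 to 18.6 and 19.2 to 24.8. The part of free RNA in the rises of Col1a1 and Col1a2 was not tested.

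In XX, Col12a1 fell in supporting-like cells from 76.3 and 78.4 CPM to 6.52 and 7.16 in -KTS KO (log2 fold change -3.50, SE 0.68, adjusted p = 0.0049) and 6.45 and 2.42 in +KTS KO (log2 fold change -4.00, SE 0.81, adjusted p = 0.016). The -KTS KO call was lost without XX -KTS KO replicate 1, and the +KTS KO call without XX WT replicate 2 or either XX +KTS KO library. Col18a1 fell in XX -KTS KO from 32.8 and 49.1 to 5.86 and 6.94 (log2 fold change -2.68, SE 0.41, adjusted p = 0.0012). Col23a1 rose in XX +KTS KO to 20.3 and 23.8 CPM from 6.14 and 6.64 (log2 fold change 1.77, SE 0.24, adjusted p = 0.003), the 1 call of that comparison that held without any 1 library. Col4a1, Col4a2, Col6a1 and Col2a1 were the other rises there, of which Col4a1 lost its call with the replicate block, and Col4a1 and Col6a1 lost theirs at a clustering resolution of 1.2. In XY +KTS KO, Col6a1 rose from 6.89 and 7.04 to 44.7 and 27.6 (log2 fold change 2.42, SE 0.39, adjusted p = 0.0016), a call that held without any 1 library. Col8a1 was among the other rises of XY +KTS KO. Its 217 UMIs over all supporting-like cells gave a median library of 0.0557 and a highest of 5.64 plain CPM. Without XY +KTS KO replicate 1 its change had the opposite sign.

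**Figure D4:**
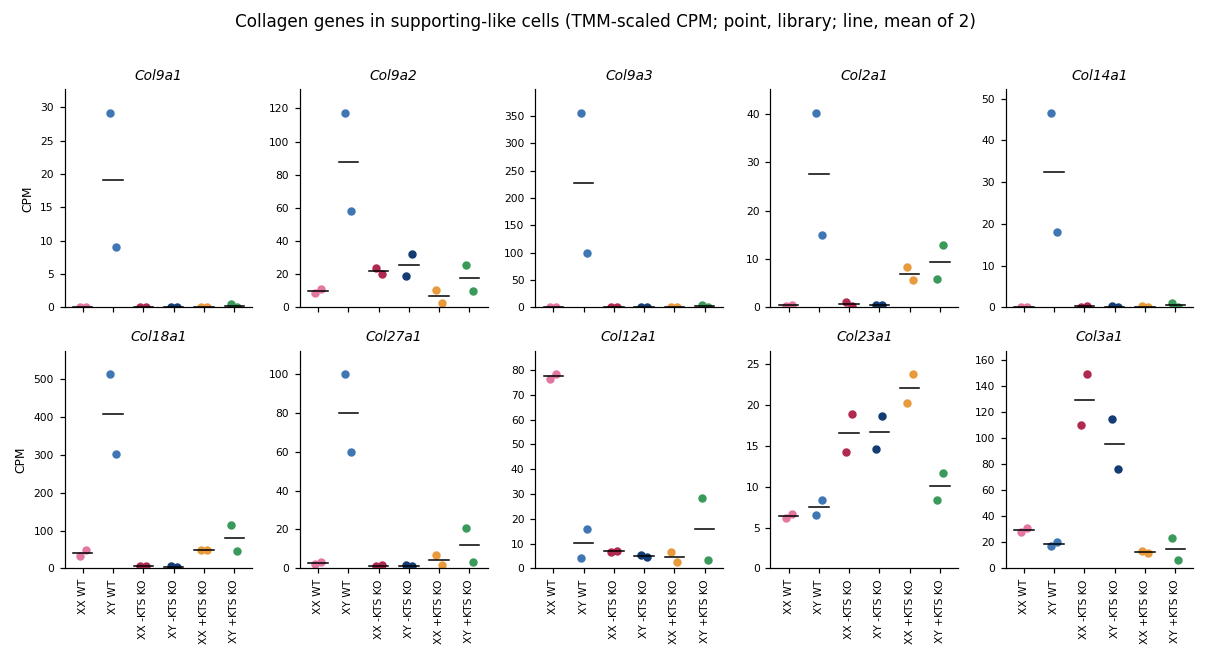
CPM of 10 collagen genes in supporting-like cells of each library, with points for libraries, lines for means of 2 and axes from 0. Type IX chains, Col14a1, Col18a1 and Col27a1 are highest in XY WT, Col12a1 in XX WT, and Col3a1 in the 4 -KTS KO libraries.

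Interstitial-like cells could be tested in +KTS KO alone, since -KTS KO libraries held 5 to 20 of them. Of 30 collagens that passed the filter, 17 rose and none fell in XY +KTS KO, 56.7% beside a share over all genes of 10.2% (5.41% higher, 4.75% lower), and 1, Col6a1, rose in XX +KTS KO beside 0.671% (0.267% higher, 0.404% lower). XY WT interstitial-like cells fell mostly in cluster 9 (92.3% of it XY WT), and those of +KTS KO in clusters 12 and 22. Those of XY +KTS KO lay mainly in cluster 12 (215 and 995 cells), whose highest-scoring other class was perivascular. The XY test thus set mainly cluster 9 against a cluster led in part by mural and collagen genes. Without XY WT replicate 1 the 17 became 3, Col1a1, Col6a1 and Col6a2, and the call of Col6a1 in XX was lost without any 1 of the 4 libraries. The leading genes of cluster 12 held Acta2 and Tagln, and also Col6a2, Col1a2, Col6a3 and Col14a1, which are among the 17. Cluster 12 was therefore also tested alone, as was cluster 22, a choice made after the data had been seen. In cluster 12, 5 of 25 collagens rose in XY +KTS KO, beside 2.44% of all genes called. They were Col1a1 (log2 fold change 2.06, SE 0.29, adjusted p = 0.0059), Col6a2 (log2 fold change 2.51, SE 0.48, adjusted p = 0.019), Col6a1, Col3a1 and Col18a1. No collagen was called there in XX +KTS KO, nor any of the 19 tested in cluster 22 in XY +KTS KO. In XX +KTS KO, cluster 22 gave rises of Col6a1 (log2 fold change 1.58, SE 0.23, adjusted p = 0.0024), Col6a2 and Col4a1 and a fall of Col12a1, beside 1.18% of all genes. Thus 13 of the 17 rises in XY were called in neither cluster alone, where fewer cells were summed, and for these genotype and cluster cannot be told apart. Their log2 fold changes in clusters 12 and 22 were not alike. Those of Col1a2 were 1.33 and 1.11 and of Col12a1 2.28 and 0.57, and Col9a2 had 2.32 in cluster 12. Those of Col6a3 were 0.16 and 0.088, of Col23a1 0.011 and -0.035, of Col4a5 0.083 and -0.20 and of Col26a1 -0.56 and -0.41, with 0.11 for Col14a1 in cluster 12. Single libraries were not left out in turn for these tests. To include -KTS KO, interstitial-like and border-mesenchyme-like clusters were joined as stromal-like cells, a choice made after the classes had been counted. Of 34 collagens tested, 1 rose and 9 fell in XX -KTS KO (29.4% against 11.7% of all genes, 5.46% higher and 6.29% lower), 6 rose and 7 fell in XY -KTS KO (38.2% against 16.4%, 8.43% higher and 7.95% lower), 1 rose in XX +KTS KO (2.94% against 0.618%, 0.234% higher and 0.384% lower) and 18 rose in XY +KTS KO (52.9% against 11.8%, 6.02% higher and 5.79% lower). The -KTS KO cells are clusters 1, 13 and 27, and the highest-scoring other class of clusters 1 and 27 was interstitial. Over somatic cells, the 10 interstitial markers summed to 1039 to 1521 plain CPM in XX and 1269 to 1445 in XY -KTS KO. In WT they summed to 625 to 671 in XX and 695 to 1124 in XY. The 7 border markers summed to 65.8 to 125 in -KTS KO against 14.6 to 18.8 in WT. Genotype and cell class thus cannot be told apart here. The border sum was 15.4 and 72 in XX +KTS KO, whose replicate 2 held 181 border-mesenchyme-like cells, and 27.3 to 28.1 in XY +KTS KO. Without that replicate, as without any other of the 4 libraries, no collagen was called in the stromal-like cells of XX +KTS KO. Stromal-like cells of XY WT and XY +KTS KO were nearly all interstitial-like, from the clusters named above.

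Col4a1, Col4a2, Col6a1, Col6a3 and Col26a1 fell in stromal-like cells of both -KTS KO sexes, and the calls of Col6a3 were lost without some library in each sex. The other falls were Col6a2, Col7a1, Col12a1 and Col23a1 in XX and Col4a4 and Col18a1 in XY, of which only those of Col6a2 and Col12a1 held without any 1 library. Col4a1 went from 98.3 and 107.5 to 19.1 and 25.8 CPM in XX (log2 fold change -2.20, SE 0.31, adjusted p = 0.0015) and from 163 and 139 to 19.4 and 20.3 in XY (log2 fold change -2.93, SE 0.32, adjusted p = 0.00028). Col6a1 went from 36.5 and 47.6 to 3.35 and 3.18 in XX (log2 fold change -3.69, SE 0.25, adjusted p = 7.6e-05) and from 15 and 17.9 to 4.61 and 3.7 in XY (log2 fold change -1.98, SE 0.24, adjusted p = 0.0005). These calls, and those of Col4a2 and Col26a1 in both sexes, held without any 1 library. Col26a1 fell from 97.2 and 95.5 to 36.1 and 24.5 CPM in XX (log2 fold change -1.67, SE 0.21, adjusted p = 0.00076) and from 67.6 and 68.5 to 30.2 and 24.6 in XY (log2 fold change -1.31, SE 0.20, adjusted p = 0.0018). Col2a1 went from 0 and 0.379 to 15.5 and 6.49 in XX (log2 fold change 5.54, SE 0.80) and from 0.26 and 0.173 to 4.67 and 6.18 in XY (log2 fold change 4.55, SE 0.73). It had 21 UMIs in interstitial-like cells, at most 0.777 plain CPM, and 1219 in border-mesenchyme-like cells. It passed the filter through the -KTS KO libraries, so its rises, counted above in each sex, are given as a description. The other rises of XY -KTS KO were Col1a1, Col4a5, Col4a6, Col6a6 and Col9a1, and all but that of Col1a1 were lost without XY WT replicate 1. Col9a1 lost its call without any 1 of the 4 libraries, under DESeq2, with the replicate block and at resolution 1.2. It had 134 UMIs in border-mesenchyme-like and 16 in interstitial-like cells, and its rise too is given as a description.

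Col1a1 rose in stromal-like cells of both XY mutants. It stood at 94.4 and 197 CPM in XX WT and 21.3 and 34.9 in XY WT, and at 295 and 174 in XX -KTS KO (log2 fold change 0.68, SE 0.38, adjusted p = 0.29) and 167 and 251 in XY -KTS KO (log2 fold change 2.90, SE 0.41, adjusted p = 0.0011). The XX values of -KTS KO and WT overlapped, and those of XY did not. In XY +KTS KO it rose to 406 and 369 (log2 fold change 3.79, SE 0.43, adjusted p = 0.0012), with Col6a2 at 142 and 58.8 from 8.95 and 11.6 (log2 fold change 3.27, SE 0.35, adjusted p = 0.0011) and Col3a1 at 548 and 349 from 112 and 129 (log2 fold change 1.89, SE 0.27, adjusted p = 0.0028). The other rises of XY +KTS KO were in Col1a2, Col4a5, Col4a6, Col5a1, Col5a2, Col6a1, Col6a3, Col7a1, Col8a2, Col9a2, Col11a1, Col12a1, Col14a1, Col22a1 and Col23a1, of which Col4a6 and Col22a1 lost their calls with the replicate block. At a clustering resolution of 1.2, Col4a5, Col4a6, Col6a3, Col8a2, Col11a1, Col14a1 and Col22a1 lost theirs, and Col22a1 did so under DESeq2 too. Without XY WT replicate 1, 6 collagens were called in XY +KTS KO beside 18, and 8 in XY -KTS KO beside 13. Col6a1 in XX +KTS KO was lost without any 1 of the 4 libraries.

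**Figure D5:**
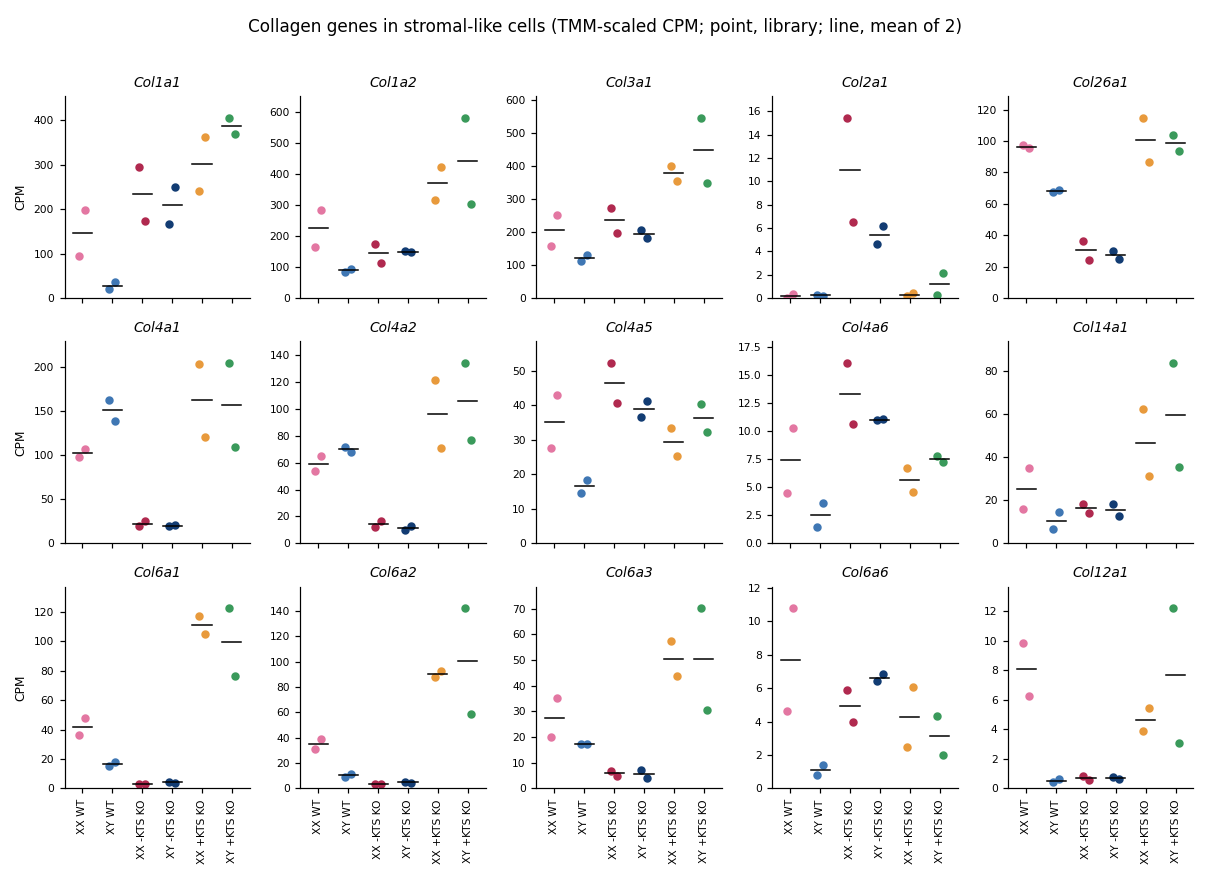
CPM of 15 collagen genes in stromal-like cells (interstitial-like and border-mesenchyme-like clusters joined) of each library, with points for libraries, lines for means of 2 and axes from 0. Col4a1, Col4a2, Col6a1, Col6a2, Col6a3 and Col26a1 are lowest in -KTS KO, and Col3a1, Col6a1 and Col6a2 are highest in +KTS KO.

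Chains that assemble into 1 molecule did not always move together. The ratio of Col1a1 to Col1a2 UMIs in somatic cells was 0.658 and 0.789 in XX WT, 0.237 and 0.321 in XY WT, and 1.73 and 1.55 for XX and 0.949 and 2.09 for XY -KTS KO libraries. It was 0.547 and 0.68 for XX +KTS KO libraries and 0.427 and 0.904 for XY. It was highest in -KTS KO and lowest in XY WT, with all 4 -KTS KO libraries above those of the rest. Col4a1 to Col4a2 stayed between 1.65 and 2.09 over the 12 libraries, while each chain moved several-fold. Col6a1 to Col6a2 ran from 0.98 to 2.15, and all 4 -KTS KO libraries lay below all others. These ratios count captured 3' ends and not chains of protein, and no test was run on them.

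Genes that modify, export, process, crosslink, bind or cut collagen (48 genes, 43 tested) were read beside the collagens. For XX -KTS KO 5 rose and 3 fell, in XY -KTS KO 4 rose and 7 fell, in XX +KTS KO 3 rose and 2 fell, in XY +KTS KO 2 rose and 7 fell, and between WT sexes none was higher in XX and 7 were higher in XY. Their shares called were 18.6, 25.6, 11.6, 20.9 and 16.3%, beside the backgrounds given above, and their medians 0.16, -0.14, 0.10, -0.23 and -0.29. None of the 4 chaperone and export genes passed in any of these 5.

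Ddr2, a receptor of fibrillar collagens, rose in both -KTS KO sexes, from 0.414 and 0.754 to 5.09 and 2.49 CPM in XX (log2 fold change 2.69, SE 0.62, adjusted p = 0.017) and from 0.275 and 0.154 to 3.13 and 2.55 in XY (log2 fold change 3.71, SE 0.68, adjusted p = 0.0041). P3h2, a prolyl 3-hydroxylase known to act on type IV, rose there too (log2 fold change 1.41, SE 0.35, adjusted p = 0.025 in XX and log2 fold change 2.29, SE 0.37, adjusted p = 0.0022 in XY). The XY calls of Ddr2 and P3h2 held without any 1 library, and the XX calls did not. P3h1, which modifies type I, fell (log2 fold change -0.90, SE 0.18, adjusted p = 0.0096 in XX). Mmp9, a gelatinase that cuts type IV, went from 0.767 and 0.569 to 0.0142 and 0.0122 CPM in XY -KTS KO (log2 fold change -5.51, SE 0.63, adjusted p = 0.00037), and Mmp2, its relative, went from 65.9 and 66.7 to 17.5 and 22.3 (log2 fold change -1.74, SE 0.24, adjusted p = 0.00094). The other rises in XX -KTS KO were Itga10, Plod2 and Dcn and the other falls Mmp9 and Crtap. In XY -KTS KO they were Lum and Colgalt2, and Adamts2, Fmod and P3h1 among the falls. The XX calls of P3h1, Itga10, Plod2, Dcn, Mmp9 and Crtap were each lost without some library, as were the XY calls of Lum, Colgalt2, Adamts2, Fmod and P3h1.

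In XX +KTS KO, Mmp2 rose from 11.3 and 15.4 to 43.8 and 41.3 CPM (log2 fold change 1.67, SE 0.24, adjusted p = 0.0062), Loxl1, a crosslinking oxidase, from 8.52 and 9.11 to 25.1 and 26.2 (log2 fold change 1.54, SE 0.25, adjusted p = 0.0096), and Itga11, a chain of a fibrillar collagen receptor, from 2.74 and 3.59 to 8.21 and 7.65 (log2 fold change 1.32, SE 0.26, adjusted p = 0.021). P3h2 and P4ha2 fell. Loxl1 and Itga11 also rose in XY +KTS KO (log2 fold change 0.92, SE 0.24, adjusted p = 0.037 and log2 fold change 1.70, SE 0.26, adjusted p = 0.0043), where Mmp9, Sparc, Plod2, Loxl3 and P4ha1 were the largest falls. Sparc, which binds collagen outside the cell, went from 1814 and 1394 CPM in XY WT to 683 and 675 (log2 fold change -1.24, SE 0.17, adjusted p = 0.0023). Sparc stood at 654 and 662 in XX WT, below XY WT (log2 fold change -1.28, SE 0.17, adjusted p = 0.0015). Mmp2 was lower in XX WT too (log2 fold change -2.31, SE 0.24, adjusted p = 0.00054), as were Plod2, Loxl2 and Loxl3 among the 5 largest differences. The calls of Sparc and Itga11 in XY +KTS KO and of Sparc and Mmp2 between the WT sexes held without any 1 library.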

How the data were processed

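UMI counts per gene and cell were deposited by the authors, whose processing notes name Cell Ranger 6.0 and the mouse build mm10. The kit captures the 3' end of polyadenylated RNA. A cell was kept with 1000 or more genes and no more than 10% of its UMIs from mitochondria. Scrublet (scanpy 1.11.5) by itself called at most 3 doublets in 9 of the 12 libraries, so the cells with the highest scores were removed, 0.8% per 1000 barcodes. Seurat 5.3.0 with sctransform 0.4.2 clustered the cells on 3000 variable genes other than collagens (50 components, 20 neighbours, resolution 0.8). A cluster was named where at least 3 markers of a class were each detected in at least 20% of its cells and their score reached 0.3. It stayed unnamed all the same where another class had more markers among its 10 leading genes. Clusters of low UMI counts with no marker of the class among those genes also stayed unnamed. These limits were chosen with the clusters in view, and a class with fewer than 50 cells in a library was not used there.

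UMIs were summed per library over somatic cells, supporting-like, interstitial-like and stromal-like cells. Each of these sums had its own fit in edgeR 4.0.16 (R 4.3.3; TMM factors, filterByExpr, quasi-likelihood F test, Benjamini-Hochberg over all genes tested, threshold 0.05), with DESeq2 1.42.0 as an alternative. All 12 libraries entered the fits of somatic, supporting-like and stromal-like cells. The fits of interstitial-like cells and of their single clusters used the 8 WT and +KTS KO libraries. Each SE is approximate, taken as the absolute log2 change over the root of its F value. The scripts were tested on simulated data. The study's methods describe the 2 libraries of a group as independent replicates from different embryos, pooled in some -KTS KO libraries. Whether these came from separate litters is not given in the sources used here, and p-values measure only the spread between these libraries. Intervals and floors (3 UMIs) cover counting error only.

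Values are given for every collagen that reached 5 CPM in the mean of a group, with calls only from the adjusted p, and for up to 5 rises and 5 falls per comparison among the collagen-making genes. The members, lists and markers were chosen with earlier results of these data known. Promoter windows came from RefSeq (GRCm38.p6). Python 3.11.15 with numpy 2.4.6, scipy 1.17.1 and pandas 2.3.3 was used for the rest.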

Additional observations from a re-analysis of the deposited data

Results flagged for a closer look

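The effect of the missing isoform differed between XX and XY, by a test of the difference itself in edgeR's quasi-likelihood fit, for 5 collagens in -KTS KO. The difference in log2 fold change, XX minus XY, was 7.44 for Col9a3 (SE 1.04, adjusted p = 0.0086), 5.93 for Col9a1 (SE 1.02, adjusted p = 0.019), 5.37 for Col2a1 (SE 0.74, adjusted p = 0.0079), 3.13 for Col27a1 (SE 0.70, adjusted p = 0.047) and 2.91 for Col18a1 (SE 0.48, adjusted p = 0.016). Each of them was higher in XY WT than in XX WT. Col2a1 and Col9a3 lost the call without XX WT replicate 1 alone, Col9a1 and Col18a1 without 6 of the 8 libraries compared, and Col27a1 without any of the 8. Col9a1 and Col27a1 also lost it over all kept cells, and Col27a1 with the replicate block.

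In +KTS KO the difference was 5.97 for Col9a3 (SE 1.06, adjusted p = 0.018), 3.67 for Col2a1 (SE 0.73, adjusted p = 0.027) and -4.76 for Col12a1 (SE 1.11, adjusted p = 0.047). The last of these was higher in XX WT. Col9a3 lost the call without either XX WT library, XY WT replicate 1 or XX +KTS KO replicate 2. Col2a1 lost it without those 4 or XX +KTS KO replicate 1, and over all kept cells. Col12a1 lost it without those 5 or XY +KTS KO replicate 1, with the replicate block, and over all kept cells.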

How the results depend on the processing

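Over 3409 values of 308 gene results under the alternatives, 2851 kept their direction and side of the threshold, 524 no longer passed, 28 passed newly and 6 changed sign. The 6 were Col8a1 in supporting-like cells of XY +KTS KO without XY +KTS KO replicate 1 (log2 fold change -3.57, and 6.15 without replicate 2) and Col26a1 in interstitial-like cells of XY +KTS KO at resolution 1.2 (-0.0050) and in cluster 12 (-0.56) and cluster 22 alone (-0.41), with Col23a1 (-0.035) and Col4a5 (-0.20) in cluster 22 alone, and the cause was not tested. Col8a1 had 217 UMIs over all supporting-like cells, and its highest library stood at 5.64 plain CPM. Counts of collagens called that moved by more than 1.5 times were, over all kept cells, 4 in XX +KTS KO, 8 between the WT sexes, and 3 and 1 for the differences between the sexes in -KTS KO and +KTS KO. Under DESeq2 those differences were called for 10 and 9 collagens, and with no filter for 9 and 10. With no filter, supporting-like cells gave 20 in XX -KTS KO and 10 in XX +KTS KO, interstitial-like cells 12 in XX +KTS KO, and stromal-like cells 17 in XX -KTS KO, 24 in XY -KTS KO and 12 in XX +KTS KO. DESeq2 gave 2 in XX +KTS KO in interstitial-like and in stromal-like cells. Within clusters tested alone, interstitial-like counts were 0 in XX and 5 in XY +KTS KO for cluster 12, and 4 and 0 for cluster 22. With 1 library left out, somatic counts ran from 5 to 9 in XX -KTS KO, 13 to 17 in XY -KTS KO, 0 to 1 in XX +KTS KO, 4 to 18 in XY +KTS KO and 4 to 12 between the WT sexes, and from 0 to 4 and 0 to 9 for the sex differences. Supporting-like counts ran from 7 to 9, 19 to 21, 1 to 3 and 8 to 20 in that order of mutants. Interstitial-like counts were 0 in XX +KTS KO and 3 to 19 in XY +KTS KO, and stromal-like counts were 8 in XX -KTS KO, 8 to 10 in XY -KTS KO, 0 in XX +KTS KO and 6 to 16 in XY +KTS KO. Pairing of the libraries by replicate number was not shown (correlations of deviations from -0.28 to 0.32 over 15 pairs of groups, 6 above 0.1). With 2 libraries a group, this check cannot exclude a batch shared by some of them. With the replicate block, somatic counts were 10, 18, 7, 14 and 12, and 4 and 2 for the sex differences. Under the block, supporting-like counts were 11, 22, 5 and 14, interstitial-like 1 and 15, and stromal-like 10, 11, 1 and 16. The joined stromal-like class, the tests of single clusters and the sums without unnamed clusters led by AY036118 were added after the data had been seen. The tests of -KTS KO in interstitial-like cells were not run, with 5 to 20 such cells per library. Genes under 1 CPM rest on few UMIs, and a fold there depends on the prior count.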
